A study of Mus musculus with 6 samples.

Results

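The genes of the cornified envelope and of late epidermal differentiation were followed in mouse back skin treated with cyclosporin A or with ethanol. They comprised every array probe assigned to a late cornified envelope gene (Lce), to a small proline-rich protein gene (Sprr), or to 1 of 19 further genes chosen by name, among them loricrin (Lor), involucrin (Ivl), suprabasin (Sbsn), the suprabasal keratins Krt1, Krt2 and Krt10, transglutaminase 1 (Tgm1) and caspase 14 (Casp14). Of 41174 probes on the array, 50 belonged to this set, and of 16398 genes named on it, 39. These are 39 of the 57 genes that the choice covers in the RefSeq table, namely 14 Lce genes, 11 Sprr genes and 14 of the genes chosen by name. The other 18 genes, which include Flg, Hrnr, Cnfn, Asprv1 and Klk5, had no matched probe and were not analysed here.

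The study measured total RNA from the back skin of C57/BL mice at 2, 4 and 7 days after cyclosporin A or ethanol, the control, was applied. On each of 6 dual-colour Agilent arrays a cyclosporin A sample, in Cy5, was hybridised together with an ethanol sample of that day, in Cy3. The labels call the 2 arrays of each day biological replicates, and their titles number them 1 and 2, but the descriptions of all 6 give the same replicate number, so n = 2 per day rests on the titles. All groups share the strain, the tissue and the ethanol comparison. No dyes were swapped, so a dye effect and the treatment cannot be told apart for any single probe. The dose, the sex and age of the mice, and whether animals were pooled are not given in the sources used here, so the p-values reflect no more than the spread among the samples at hand.

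Values are log2 ratios of the cyclosporin A channel over the ethanol channel, so a value below 0 is a lower level after cyclosporin A. Day 7 was hybridised on a slide of its own and the earlier days shared another, so that slide and day 7 cannot be told apart. The share of probes well above background was 44.4% to 57.2% for ethanol skin and 60.6% to 69.5% for cyclosporin A skin, and no spot was saturated. A probe was tested when either channel was well above background on both arrays of at least 1 day. This held for 27938 probes and for 49 of the 50 members. The probe of Sprr3, a small proline-rich protein best known from internal squamous epithelia, did not pass. In both channels and on all 6 arrays, 43 member probes were well above background, including those of Lor and Krt1 and the probes of Krt10 and Krtdap, which mark the suprabasal layers of the labelled tissue.

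As keratinocytes leave the basal layer of the epidermis they switch on Krt1 and Krt10, and in the granular layer they make the precursors of the cornified envelope, a protein shell laid down beneath the cell membrane. Involucrin forms an early scaffold, loricrin becomes the main component, and SPRR and LCE proteins are added as cross-bridging and late components, joined by transglutaminases such as TGM1. Many of the precursor genes lie side by side in the epidermal differentiation complex on mouse chromosome 3. Cyclosporin A blocks calcineurin, the phosphatase that activates the transcription factors of the NFAT family.

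The region around the start of transcription is shown for 4 members on which the results turn. Lce1a1 and Sbsn had lower ratios past the test at day 7, Lor had ratios of like size on the same arrays without passing it, and Sprr2k was above 0 on every array. The sequences are RefSeq windows on GRCm38.p6 from 250 bases before to 50 bases after the gene start, written 5′ to 3′ on the gene's strand, with TATAAA and the AP-1 motif TGANTCA, searched on both strands, in capitals. Lce1a1 lies at chr3:92648258-92648557 on the minus strand, Lor at chr3:92083093-92083392 on the minus strand, Sprr2k at chr3:92432332-92432631 on the plus strand and Sbsn at chr7:30751221-30751520 on the plus strand.
Lce1a1: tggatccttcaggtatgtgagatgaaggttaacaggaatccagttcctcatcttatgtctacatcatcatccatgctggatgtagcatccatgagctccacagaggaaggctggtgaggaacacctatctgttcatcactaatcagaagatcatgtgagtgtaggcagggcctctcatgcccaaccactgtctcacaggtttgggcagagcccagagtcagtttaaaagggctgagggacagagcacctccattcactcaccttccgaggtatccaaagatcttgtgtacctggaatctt
Lor: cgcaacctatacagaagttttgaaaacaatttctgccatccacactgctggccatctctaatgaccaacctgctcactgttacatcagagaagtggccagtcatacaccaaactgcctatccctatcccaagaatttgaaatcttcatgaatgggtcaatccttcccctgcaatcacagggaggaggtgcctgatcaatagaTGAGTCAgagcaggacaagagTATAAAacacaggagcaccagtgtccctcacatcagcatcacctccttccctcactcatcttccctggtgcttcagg
Sprr2k: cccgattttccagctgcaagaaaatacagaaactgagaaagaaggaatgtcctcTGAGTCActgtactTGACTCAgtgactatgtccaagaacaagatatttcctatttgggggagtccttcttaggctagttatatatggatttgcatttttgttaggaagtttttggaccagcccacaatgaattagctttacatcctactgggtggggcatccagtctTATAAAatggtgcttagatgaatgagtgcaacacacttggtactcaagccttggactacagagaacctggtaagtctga
Sbsn: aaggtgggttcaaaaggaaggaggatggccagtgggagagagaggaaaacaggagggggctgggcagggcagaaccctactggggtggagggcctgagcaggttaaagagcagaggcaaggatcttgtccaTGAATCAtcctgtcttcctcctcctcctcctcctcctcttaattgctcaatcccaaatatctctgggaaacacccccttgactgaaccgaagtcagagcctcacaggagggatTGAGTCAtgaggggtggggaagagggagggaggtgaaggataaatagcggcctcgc

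The Lor window held TATAAA beginning at -27 and an AP-1 match beginning at -48 relative to the gene start. The Sprr2k window held both motifs, the Sbsn window held AP-1 matches only, and the Lce1a1 window held neither. Windows were found for 36 of the 39 genes, 40 windows in all. TATAAA was present in 40.0% of them, against 13.6% of all 32851 windows in the table, and TGANTCA in 40.0% against 7.81%. The families differed in content. TATAAA was found in 9 of 11 Sprr windows and 2 of 13 Lce windows, and TGANTCA in 8 of 11 Sprr windows and 0 of 13 Lce windows. GGAAA, the core of the NFAT motif, occurred in 57.5% of member windows and 61.3% of all windows. CCAAT occurred in 30.0% against 37.4%, and CACCC, a short form of the Klf motif, in 57.5% of both. These matches describe letters in the windows, and neighbouring Sprr and Lce genes are copies of one another, so their windows are not independent.

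At day 7, 24 of the 47 member probes measured on both arrays were below 0 on both, against 28.7% of all probes, and 19 were below 0 on replicate 2 alone. Both probes of Sbsn and the probe of Lce1a1 passed the test, all lower, and no member was called higher. They are 3 of the 49 probes tested, whereas 0.544% of all probes tested were called lower at day 7, 2.04% higher and 2.59% in either direction (limma, Benjamini-Hochberg adjusted p under 0.05 over all probes). At an unadjusted p under 0.05, 20 members (40.8%) were lower and 1 was higher, against 8.18% and 13.2% of all probes tested. The mean ratio of the day was below 0 for 41 of 49 members, with a median of -0.49 and a range from -1.76 to 0.52, while the median of all probes was 0.03. In whole skin, fewer cells of a type and less RNA per cell cannot be told apart.

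The calls at day 7 depended on the normalization, and so did the share of all probes called lower. That share was 0.544% in the main fit, 0.0895% with processed signals and 0.0609% with deposited ratios. It was 0.154% with scaling between arrays, 0.284% with no filter and 2.08% with median centring. No member was called lower when the scanner software's processed signals, its deposited ratios, scaling between arrays, no filter on dim probes, or median centring without loess was used, nor without either array of day 7. The count of members called also moved when an array of day 2 or day 4 was left out, which left that day with 1 array.

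No member passed the test at day 2 or day 4, with lowest adjusted p-values of 0.479 and 0.181 (limma). At those days 0% and 0.00358% of all probes were called. At an unadjusted p under 0.05, 2 members were lower and 1 higher at day 2, against 2.98% and 6.75% of all probes, and 3 were lower and 3 higher at day 4, against 5.25% and 10.1%. The member median was -0.05 at day 2 and 0.22 at day 4. Under median centring without loess, which moved the median of all probes to 0.36 at day 2, 0.24 at day 4 and 0.15 at day 7, the member medians were 0.59, 0.81 and 0.03. In that setting 22 members at day 2, 26 at day 4 and 1 at day 7 were called higher, while 31.7%, 20.1% and 17.1% of all probes were. It also left bright probes above the rest: the brightest 10% of probes, a set taken after the values were seen, had, members left out, medians of 0.85 and 0.87 on the arrays of day 2, 0.93 and 0.65 at day 4, and 0.56 and 0.76 at day 7. The 24 members among the brightest 10% had medians of 0.45 and 1.31, 1.18 and 1.00, and 0.38 and -0.10 on the same arrays. Against the rest of that brightest 10% these members were thus lower on replicate 1 and higher on replicate 2 of day 2. They were higher on both arrays of day 4 and lower on both of day 7. The comparison was not matched for brightness. The median log2 ethanol level was 13.99 to 14.31 for these members and 13.04 to 13.09 for the rest.

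The ratios also differed between the arrays of a day. The member median was -0.43 and 0.26 on replicates 1 and 2 of day 2, 0.14 and 0.31 on those of day 4, and -0.05 and -0.82 on those of day 7. Of the members, 44 and 8 of 49 were below 0 at day 2, 14 and 11 of 49 at day 4, and at day 7 24 of 47 on replicate 1 and 45 of 49 on replicate 2. The medians of all probes tested stayed between 0.02 and 0.06 on the same arrays. The members were therefore low on 1 array of day 2 and clearly so on 1 array of day 7, and the replicates of these days did not show the same level.

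**Figure D1:**
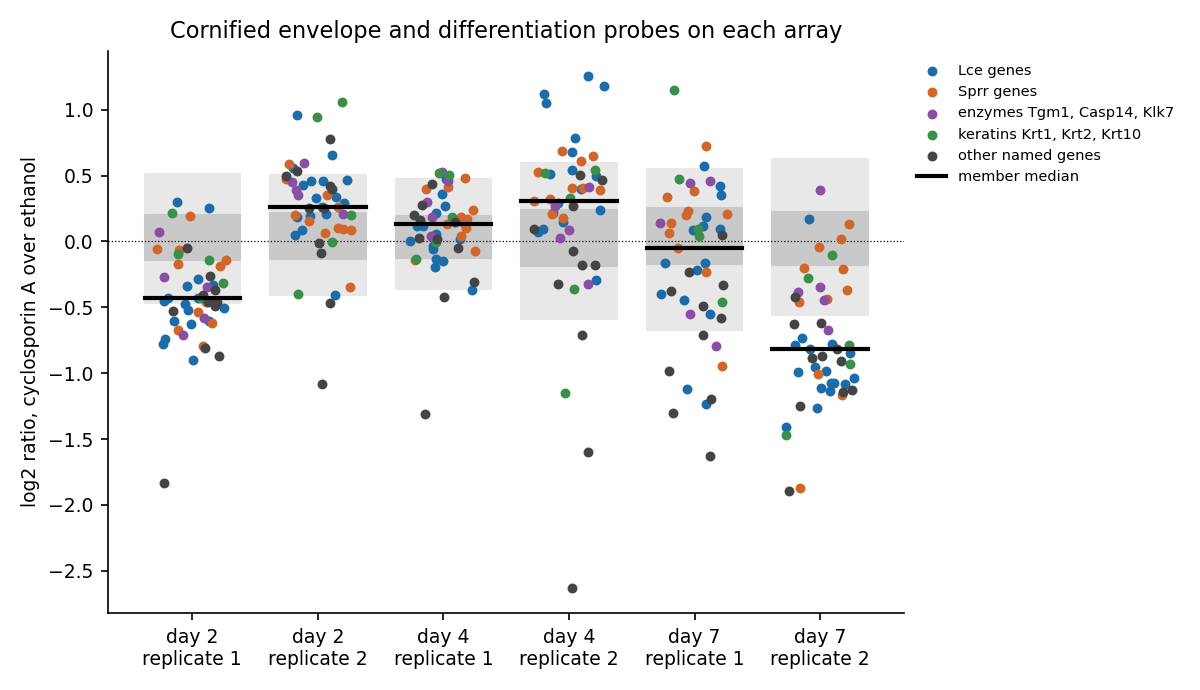
Log2 ratio of cyclosporin A over ethanol (vertical axis) for each of the 49 tested member probes on each of the 6 arrays (horizontal axis). Points are probes coloured by role, black bars are member medians, light grey spans the 5th to 95th and dark grey the 25th to 75th percentile of all probes tested. The members sit low on day 2 replicate 1 (median -0.43) and lowest on day 7 replicate 2 (median -0.82).

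Within day 7, 40 of the 47 members measured on both arrays (85.1%) had the higher ratio on replicate 1, against 55.2% of all probes, with a median difference of 0.59. Within day 2 the shift ran the other way in numbering, with 44 of 49 members (89.8%) higher on replicate 2, against 51.6% of all probes, and a median difference of -0.76 for replicate 1 minus replicate 2. At day 4 the difference was -0.12. The gap stayed under median centring, at -0.85 for day 2 and 0.49 for day 7, and in the scanner software's processed signals, at -0.88 and 0.73. No order is implied by the replicate numbers.

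The gap lay mostly in the cyclosporin A channel. At day 7 the members' log2 level in cyclosporin A skin differed between the arrays by a median of 0.67, replicate 1 being higher, whereas the level in ethanol skin differed by -0.06. At day 2 the corresponding values were -0.53 in cyclosporin A skin and 0.19 in ethanol skin. At day 4 both channels were higher on replicate 2, with differences of -0.31 in cyclosporin A skin and -0.22 in ethanol skin. The ratio cancelled most of the day 4 difference. The corresponding medians of all probes lay between -0.01 and 0.02 in both channels.

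**Figure D2:**
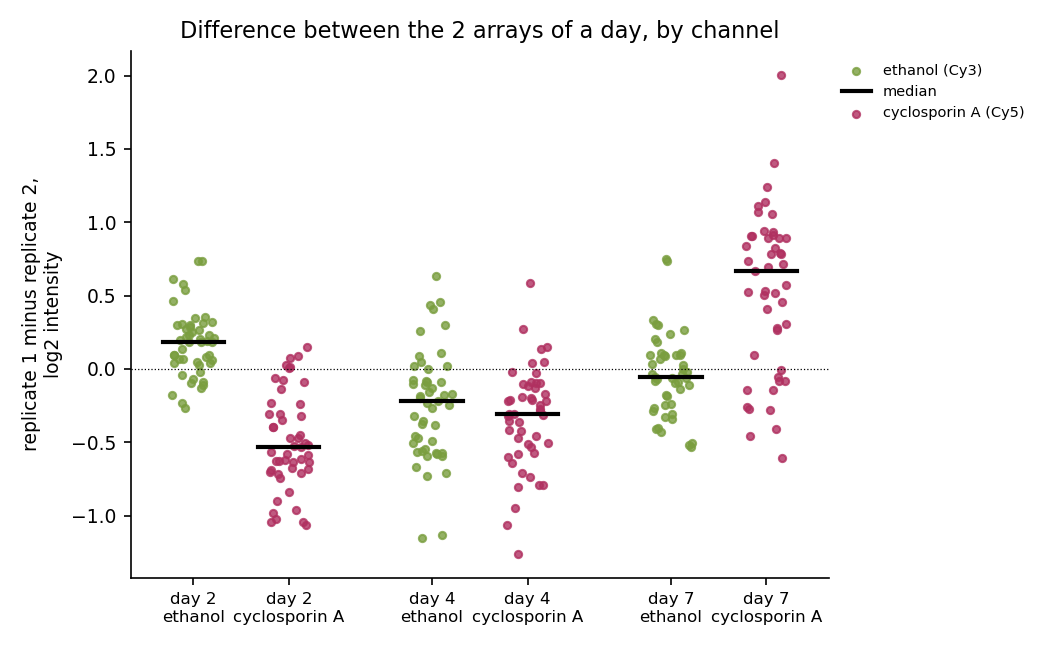
Difference in log2 intensity between replicate 1 and replicate 2 of each day (vertical axis) for each member probe, shown for the ethanol (Cy3) and cyclosporin A (Cy5) channels (horizontal axis). Points are probes and bars medians. At day 7 the cyclosporin A median is 0.67 and the ethanol median -0.06.

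At day 7, 24 of 47 members (51.1%) were below 0 on both arrays, against 28.7% of all probes, and 9 (19.1%) were below -0.5 on both, against 1.83%. The 9 probes were those of Lor, Ivl, Lce1a1, Lce1i and Lce1m, both probes of Sbsn, and 1 probe each of Dmkn and Krtdap. The limit of -0.5 and these names were chosen after the values were seen. Another 19 members were above 0 on replicate 1 and below 0 on replicate 2, and 0 showed the reverse, against 18.4% and 14.2% of all probes. The probes of Casp14, Sprr2k and Sprr4 were above 0 on both arrays, as was the dimmer probe of Lce1g, which passed the filter through the cyclosporin A channel alone. At day 2, 8 of 49 members (16.3%) were below 0 on both arrays and 1 below -0.5 on both, against 22.7% and 0.244% of all probes, and at day 4, 6 (12.2%) and 1, against 28.9% and 0.692%. The dimmer Sbsn probe was the 1 in each case. At day 4, 30 members (61.2%) were above 0 on both arrays, against 37% of all probes. By sign alone, some members were thus below 0 on both arrays of day 7 and others on replicate 2 only. Whether these form separate groups was not tested.

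**Figure D3:**
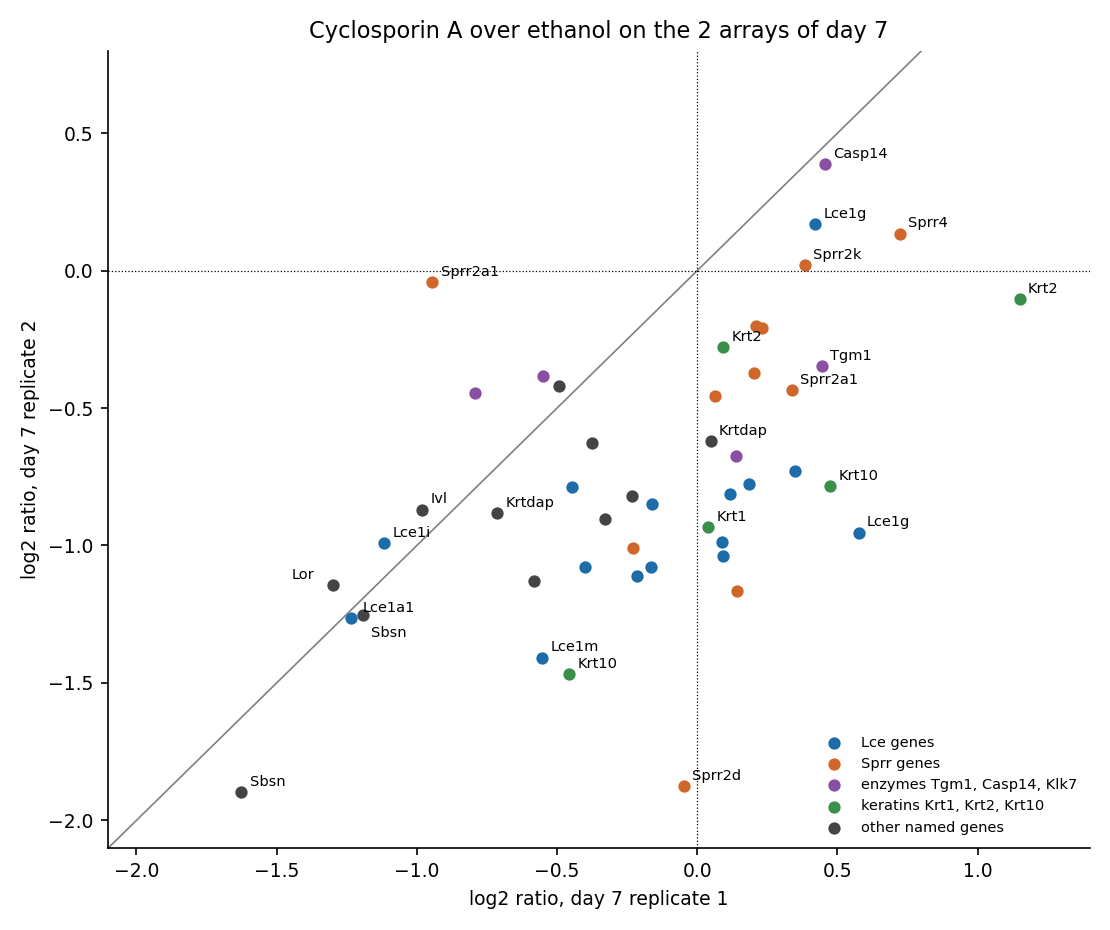
Log2 ratio of cyclosporin A over ethanol on day 7 replicate 1 (horizontal axis) and replicate 2 (vertical axis) for the 47 member probes measured on both, coloured by role, with selected genes named; a gene named more than once has several probes. The grey line marks equal ratios, on which Lor, Sbsn and Lce1a1 lie closely, while most other points lie under it.

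Loricrin, the main protein of the finished envelope, was measured by 1 probe. Its log2 ratio was -0.26 and 0.78 on the arrays of day 2, 0.27 and -0.18 on those of day 4, and -1.30 and -1.14 on those of day 7. Both day 7 arrays lay below all 4 earlier ones. The mean at day 7 was -1.22 ± 0.24 (SE, n = 2 arrays), 2.33-fold lower, with an adjusted p of 0.0541 (limma), so it missed the threshold. In cyclosporin A skin its log2 intensity was 17.14, 17.44, 17.35 and 17.56 on the arrays of days 2 and 4 and 16.18 and 16.64 on those of day 7. In ethanol skin it ranged from 16.67 to 17.74 at days 2 and 4 and was 17.48 and 17.78 at day 7. At day 7 the cyclosporin A levels did not overlap the ethanol levels, and they were also below every earlier cyclosporin A level. The change in cyclosporin A skin from day 2 to day 7 was -0.88 with an adjusted p of 0.139 (limma). Under median centring the day 7 mean of Lor was -0.15.

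Involucrin, an early scaffold of the envelope, followed the same arrays at day 7. Its ratio was -0.81 and 0.25 at day 2, 0.02 and -0.71 at day 4, and -0.98 and -0.87 at day 7. The day 7 values were the lowest of the 6, although day 2 replicate 1 and day 4 replicate 2 came close to them. The mean was -0.93 ± 0.27 (SE, n = 2 arrays), with an adjusted p of 0.125 (limma). Repetin (Rptn), a fused S100-type protein encoded in the same chromosome 3 complex, was below 0 on 6 of 6 arrays, from -0.87 to -0.01, and reached -0.53 at day 7 with an adjusted p of 0.239 (limma).

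Suprabasin, a protein secreted in the upper epidermis, was represented by 2 probes that both passed at day 7 but differed earlier. The ratio of its brighter probe was -0.46 and 0.53 at day 2, 0.02 and -0.07 at day 4, and -1.19 and -1.25 at day 7. The day 7 pair lay apart from the other 4 arrays, with a mean of -1.22 ± 0.22 (SE, n = 2 arrays), 2.33-fold lower, and an adjusted p of 0.0411 (limma). The dimmer probe read -1.84 and -1.08 at day 2, -1.31 and -2.63 at day 4, and -1.63 and -1.90 at day 7. It was low on all 6 arrays, with a mean of -1.76 ± 0.31 at day 7 (SE, n = 2 arrays, adjusted p = 0.0399, limma) and of -1.46 and -1.97 at days 2 and 4, which did not pass. The probes differed by up to 2.55 on a single array, and by 0.43 at the least, so the days on which Sbsn read low depend on the probe. Over the alternatives the day 7 mean ranged from -1.26 to -0.25 for the brighter probe and from -1.90 to -1.07 for the dimmer one. Across the alternatives the adjusted p of the brighter probe ranged from 0.0108 to 0.512. For the dimmer probe it ranged from 0.00818 to 0.219.

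The low ratios of the brighter Sbsn probe at day 7 lay with the cyclosporin A channel. Its log2 intensity there was 16.05, 16.76, 16.48 and 16.65 on the arrays of days 2 and 4 and 15.46 and 15.47 at day 7. In ethanol skin the values ran from 16.22 to 16.72 over all 6 arrays. Dermokine (Dmkn) and keratinocyte differentiation-associated protein (Krtdap) lie beside Sbsn on chromosome 7 and are likewise secreted by suprabasal cells. The brighter Dmkn probe read -0.33 and -0.91 at day 7 and the dimmer one -0.58 and -1.13, below 0 on all 6 arrays. The brighter Krtdap probe read 0.05 and -0.62 at day 7, and the other -0.71 and -0.88, with an adjusted p of 0.0593 (limma). None of these 4 probes passed, and each was lower on replicate 2.

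Corneodesmosin (Cdsn), the adhesive protein of the desmosomes of cornified cells, gave -0.53 and 0.40 at day 2, 0.20 and 0.09 at day 4, and -0.49 and -0.42 at day 7. Its day 7 arrays were close to each other and to 1 array of day 2, and the mean of -0.46 had an adjusted p of 0.26 (limma). Calmodulin-like 3 (Calml3), a calcium-binding protein of epithelia, gave -0.37 and -0.63 at day 7 with an adjusted p of 0.161 (limma), and was below 0 on 5 of 6 arrays.

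The LCE proteins are small late components of the envelope, encoded in a cluster of similar genes. Lce probes had medians of -0.47 and 0.33 on the arrays of day 2, 0.06 and 0.50 at day 4, and -0.16 and -0.99 at day 7. Of 17 probes from 14 genes, 16 had a mean below 0 at day 7, against 45.6% of all probes. Of the 15 measured on both arrays, 8 were below 0 on both, against 28.7% of all probes. The test was passed by 1, and 0.544% of all probes were called lower. Since the genes resemble one another, a probe may bind more than 1 transcript, which was not tested. At day 4, 11 of 17 probes were above 0 on both arrays, where 37% of all probes were, and none was called.

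Lce1a1 was the Lce gene called lower. Its ratio was -0.78 and 0.19 at day 2, -0.15 and 0.21 at day 4, and -1.24 and -1.26 at day 7. The day 7 arrays lay side by side and below the other 4. The mean was -1.25 ± 0.22 (SE, n = 2 arrays), 2.38-fold lower, with an adjusted p of 0.041 (limma) that ranged from 0.0162 to 0.31 over the alternatives. Over the alternatives the day 7 mean itself ranged from -1.28 to -0.37. In cyclosporin A skin the log2 intensity of Lce1a1 was 14.57 and 14.62 at day 7, against 15.08 to 15.77 earlier. In ethanol skin it stayed between 15.49 and 15.88 on all 6 arrays.

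Of the other Lce genes, the lowest means at day 7 were those of Lce1a2, Lce1c and Lce1i. Lce1a2 and Lce1c were measured on replicate 2 alone at that day, because the scanner software marked their spots on replicate 1 as outliers, and read -1.14 and -1.08 there. Lce1i read -1.12 and -0.99 (adjusted p = 0.0974, limma), one of the few with like values on both arrays. The highest means by the brightest probe were those of Lce1g, Lce3f and Lce1b. Lce1g read 0.58 and -0.95 and Lce3f 0.35 and -0.73, so each changed sign between the arrays. Lce1b read 0.12 and -0.81, and its second probe 0.18 and -0.78. The probe of Lce3f was well above background in ethanol skin on 1 of 6 arrays, and the dimmer Lce1g probe on 0 of 6. Lce1l, chosen after its values were seen, was below 0 on 6 of 6 arrays, with -0.45 and -0.79 at day 7 and an adjusted p of 0.0586 (limma).

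The SPRR proteins cross-bridge other envelope components, and several are known to rise in stressed epidermis. Sprr probes had medians of -0.19 and 0.15 at day 2, 0.17 and 0.40 at day 4, and 0.20 and -0.37 at day 7. None of the 11 probes tested passed at any day, and 7 had a mean below 0 at day 7, against 45.6% of all probes. Their day 7 median was -0.09, against -0.62 for the Lce probes. That difference between families was not tested. On replicate 2 of day 7, 9 of the 11 were below 0, and on replicate 1, 3 were, against 47.2% and 43% of all probes.

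The lowest Sprr means at day 7 were those of Sprr2d, Sprr2f and Sprr2h. Sprr2d read -0.05 and -1.88, the widest gap between the arrays among these 3 genes, and its mean of -0.96 ± 0.41 (SE, n = 2 arrays) had an adjusted p of 0.24 (limma). Sprr2f read -0.23 and -1.01, and its probe was well above background in ethanol skin on 2 of 6 arrays. Sprr2h read 0.14 and -1.17. The low means of these genes came mainly from replicate 2.

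The highest were those of Sprr4, Sprr2k and Sprr2b. Sprr4 read 0.72 and 0.13 at day 7, Sprr2k 0.38 and 0.02, and Sprr2b 0.23 and -0.21. Sprr2k was above 0 on 6 of 6 arrays, each time with signals well above background. Above 0 on all 6 arrays were 3 of 47 members (6.38%), against 15.3% of all probes. In the opposite direction 4 of 47 members (8.51%) were below 0 on all 6 arrays, against 8.43%. A constant direction below 0 over the 6 arrays was thus about as frequent among the members as among all probes. A constant direction above 0 was less frequent among the members.

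The suprabasal keratins form the filaments that fill differentiating cells. The Krt1 ratio was -0.31 and 0.94 at day 2, 0.18 and 0.33 at day 4, and 0.04 and -0.93 at day 7. Krt1 thus differed widely between the arrays of day 2 and between those of day 7, with the low value on replicate 1 in the former and on replicate 2 in the latter. Krt10, its partner, had 2 probes that disagreed in sign on 4 of 6 arrays. The brighter probe read 0.21 and 1.06, 0.50 and 0.52, and 0.47 and -0.78 on the arrays of days 2, 4 and 7, and the dimmer one -0.43 and 0.20, -0.13 and -1.15, and -0.46 and -1.47. They differed by 0.64 to 1.67 on an array, but both were lower on replicate 2 of day 7. Krt2, a keratin of the upper layers most abundant in ear and tail skin, was well above background in ethanol skin on 3 of 6 arrays by its brighter probe, which read 1.15 and -0.10 at day 7. No keratin probe passed at any day.

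Among the enzymes, Tgm1, which forms the cross-links of the envelope, read -0.58 and 0.59 at day 2, 0.04 and 0.41 at day 4, and 0.44 and -0.35 at day 7. Its day 7 mean was 0.05 ± 0.30 (SE, n = 2 arrays), with an adjusted p of 0.939 (limma), and its arrays of that day differed in sign. Caspase 14, a protease of cornifying cells that acts on filaggrin, read 0.07 and 0.39, 0.53 and 0.27, and 0.46 and 0.39. It was above 0 on all 6 arrays, and its arrays of day 7 differed little, but the mean of 0.42 ± 0.13 (SE, n = 2 arrays) did not pass, with an adjusted p of 0.145 (limma). Klk7, a kallikrein that helps release cells at the surface, had 3 probes. The brightest read 0.14 and -0.68 at day 7, and the others -0.79 and -0.44, and -0.55 and -0.38, so they did not give the same order of the arrays.

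The change between days was tested directly. From day 4 to day 7 the change was below 0 for 43 of 49 members, with a median of -0.71, but none passed, and the lowest adjusted p was 0.638 (limma), while 0.168% of all probes were called, all higher. At an unadjusted p under 0.05, 17 members were lower and 0 higher, against 2.05% and 2.25% of all probes. From day 2 to day 7 the median change was -0.45, 0 members were called against 0.222% of all probes, 7 were lower and 0 higher at an unadjusted p under 0.05 (2.1% and 3.63% of all probes), and the lowest adjusted p was 0.409 (limma). From day 2 to day 4 the median change was 0.26, with 0 members and 0% of all probes called and no member under an unadjusted p of 0.05, against 1.03% lower and 1.18% higher among all probes. Both arrays of day 4 above 0 and both of day 7 below 0 was seen for 8 of 47 members (17.0%) and for 3.09% of all probes. The day 7 calls of Sbsn and Lce1a1 are therefore differences from ethanol skin of the same day. Their change since day 4 was tested and did not pass.

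No member passed in a single channel from day 2 to day 7, where 0.0322% of all probes were called in ethanol skin and 0.752% in cyclosporin A skin (limma). In ethanol skin the median member change was 0.18. There, the level of 10 members was above, and of 2 below, that of day 2 with an unadjusted p under 0.05, against 5.58% and 5.23% of all probes. In cyclosporin A skin the median change was -0.20, with 3 members above and 8 below at that p, against 7.3% and 6.07%.

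Other genes of epidermal differentiation were taken from 5 lists covering 67 genes, of which 54 were tested by their brightest probe. None was called at day 2 or day 4, and at day 7, 4 were called higher and 0 lower. They were Padi3, Padi1, Prr9 and Tchhl1. Padi3, a peptidylarginine deiminase that acts in the inner root sheath of the hair follicle as well as in epidermis, read 4.58 and 4.25 at day 7. Prr9, a proline-rich protein encoded in the chromosome 3 complex, read 5.09 and 4.41. Padi1, a second deiminase, read 0.94 and 0.90, and Tchhl1, a trichohyalin-like protein, 1.14 and 0.80. Compared with ethanol skin of that day these genes were higher on both arrays, with adjusted p-values from 8.98e-05 to 0.0219 (limma), in the direction opposite to the called members.

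By role, 0 of 11 differentiation regulators passed at day 7, with a median of -0.0027, and Cebpa, a transcription factor of suprabasal cells, had the lowest value, -0.95 (adjusted p = 0.0616, limma). Of 13 barrier lipid enzymes 0 passed, with a median of -0.27 and 12 of 13 below 0 on replicate 2. Of 8 scaffold and junction genes 0 passed, with a median of -0.28. The junction genes Pkp3 and Perp had the lowest adjusted p of that list (0.0921 and 0.226, limma). They read -1.07 and -0.67, and -0.83 and -0.48, so both were lower on replicate 1. The scaffold proteins envoplakin (Evpl) and periplakin (Ppl) read 0.02 and -0.54, and -0.03 and -0.66, so these were lower on replicate 2. Filaggrin 2 (Flg2), of the other cornified proteins, read -0.14 and -1.34. Evpl, Ppl and Flg2 are named although other genes of their lists had a lower p.

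Markers of other cells varied over these arrays too. Basal keratinocyte markers had medians of -0.31 and 0.22 at day 2, -0.07 and 0.29 at day 4, and -0.02 and -0.50 at day 7, with 11 and 1, 6 and 4, and 6 and 9 genes below 0 among the 11 tested (10 on day 4 replicate 1). Their lowest medians fell on the same arrays as those of the members, and 1, Lamb3, a chain of the basement membrane laminin, was called lower at day 7 (-1.40 and -1.18, adjusted p = 0.0486, limma). Fibroblast markers had medians of 0.86 and -0.15 at day 2, with 0 of 7 genes below 0 on replicate 1 and 4 of 7 on replicate 2. They had medians of -0.20 and -0.01 at day 7. Skeletal muscle markers were lower on replicate 2 of day 7 as well, at -0.90 against -0.37, with 9 and 6 of 9 below 0. Of these 9, 3 were called lower at day 7, namely Ttn, Myl1 and Des (adjusted p from 0.0173 to 0.028, limma), against 0.544% of all probes. Of 6 sebaceous gland genes, 2 had a day 7 mean below 0, and 1, Awat2, was called lower (adjusted p = 0.0269, limma). Langerhans cell and MHC class II genes had day 7 medians of -1.20 and -1.15, with 3 of 5 called lower. The 3 were Cd74, H2-Aa and H2-Eb1, while H2-Ab1 was not called (adjusted p = 0.172, limma). Cd207, the Langerhans cell gene of the list, read 0.17 and -0.30 and was not called either (adjusted p = 0.871, limma). Hair follicle inner root sheath and shaft genes had day 7 medians of 4.94 and 5.66, with 7 of 7 called higher. The part of these cell types in the members' ratios was not tested.

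**Figure D4:**
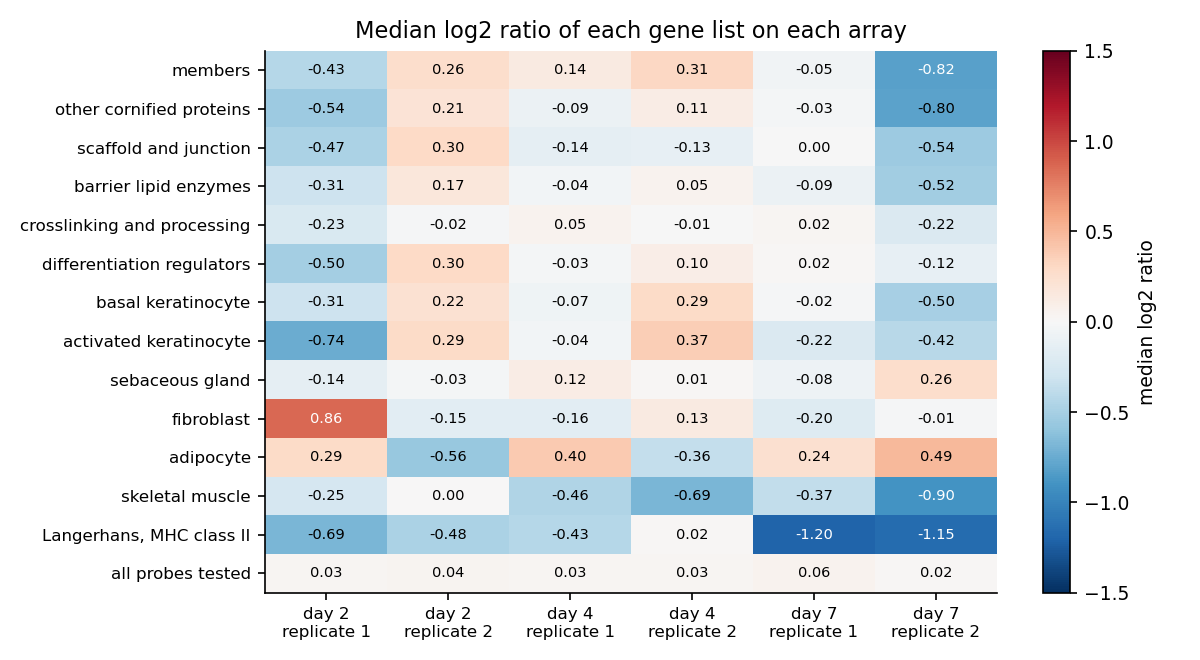
Median log2 ratio of cyclosporin A over ethanol (colour scale and printed values) of the members, of the other lists of epidermal differentiation, of the marker lists of other cell types and of all probes tested (rows) on each array (columns). The hair follicle list, with medians up to 5.66, has no row in the figure. The rows of epidermal differentiation and of basal and activated keratinocytes have their lowest medians on day 2 replicate 1 and day 7 replicate 2.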

How the data were processed

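Per the submitters' processing notes the authors scanned with Agilent Feature Extraction 9.1, and the deposited scanner files hold mean and background intensity per spot, processed intensity and the log10 ratio of red over green. The deposited value table equals that log10 ratio on all 6 arrays. The signals used here were not yet normalized. Median spot signals were corrected with normexp (offset 50) and loess in limma 3.58.1 (R 4.3.3). Control and outlier spots were left out, and spots of a probe were averaged. The log2 ratios of the deposited intensity channels were fitted with 1 mean per day over all 6 arrays (lmFit and eBayes). Benjamini-Hochberg adjustment was made over all probes tested. Channel levels were scaled between arrays (Aquantile). The fit was tested on simulated data.

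Probes were named through RefSeq (GRCm38.p6): 22951 by accession and 67 by symbol, with 18156 unnamed. The number of arrays limits the precision, and probes of a gene were kept separate. Named were the genes listed by name, any called Lce or Sprr gene with the 3 lowest and 3 highest at day 7 by brightest probe, and, of the other lists, called genes and up to 4 with the lowest p; others are said to be chosen later. The members and lists were chosen with earlier results of these data known. Alternatives covered background, normalization, filters, probe choice, days and single arrays.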

Additional observations from a re-analysis of the deposited data

Results flagged for a closer look

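Among the other genes of epidermal differentiation, the ratio of 2 changed between days in a direct test. Padi3 rose from day 4 to day 7 by 4.39 ± 0.24 on the log2 scale (SE, 2 arrays per day, adjusted p = 0.00134, limma), and Prr9 by 4.78 ± 0.29 (adjusted p = 0.00176, limma). Of the 7 hair follicle inner root sheath and shaft genes tested, 6 were called higher at day 7 than at day 4 in the same fit. No member showed such a difference. Groups of 2 arrays are too small to test a single array as an outlier.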

How the results depend on the processing

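The count of members called lower at day 7 was 3. It was 0 with the scanner software's processed signals, 0 with median centring and 0 with the deposited ratios. It was also 0 with scaling between arrays and 0 with no filter on dim probes. With each day fitted alone it was 6, while 0.483% of all probes were called lower, against 0.544% in the main fit. Leaving out 1 array gave 0 to 5 calls at day 7. For the level in cyclosporin A skin at day 7 against day 2, where no member was called, leaving out an array gave 0 to 2 higher and 0 to 1 lower, the highest numbers without day 7 replicate 2. Where an array was left out, the lone array of that day is assumed to vary like the other days. The share of all probes called lower at day 7 also changed among the fits without 1 array. The member counts of those fits therefore do not by themselves show a change particular to the members. Under median centring, 22 members were called higher at day 2 (median 0.595), 26 at day 4 (median 0.815) and 1 at day 7, along with 31.7%, 20.1% and 17.1% of all probes. There, genes with a mean below 0 at day 2 were called higher: Calml3 (0.60), Lce1m (1.07), Lce1a2 (0.79), Lce1c (0.92), Sprr2b (0.54), Lce1d (0.89), Lce1a1 (0.76) and Lce1f (0.79). The same held at day 4 for Lce1m (1.09) and Sbsn (1.12). The cause was not tested. The replicate block left 1 call at day 7, Lce1a1 (adjusted p = 0.048, limma), where 0.218% of all probes were called lower. There the probes of Sbsn reached adjusted p-values of 0.0676 and 0.0718 (limma). Deviations of same-numbered arrays correlated at 0.03 between days 2 and 4, -0.27 between days 2 and 7 and -0.02 between days 4 and 7, over all probes tested. Whether the numbers pair samples across days cannot be told from these values. The median member ratio at day 7 lay between -0.82 and 0.03 over all alternatives. Dim probes of Krt2, Lce3f, Sprr1b, Sprr2f and Lce1g limit what their ratios show.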

Other observations

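Of the 49 members tested, 24 lay in the brightest 10% of all probes by mean signal over both channels, a set taken after the values were seen. Their medians were -0.44 and 0.33 on the arrays of day 2, 0.15 and 0.25 on those of day 4, and -0.39 and -0.96 on those of day 7. All 24 were below 0 on day 7 replicate 2, and 14 of 22 on replicate 1. The other probes of that brightest 10% had medians between -0.06 and 0.02 on the 6 arrays.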
